A study of Oryza sativa with 6 samples.

Results

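SGR, NYC1 and RCCR1 are 3 rice genes whose products act in the breakdown of chlorophyll. They were chosen by name, as the genes carrying these symbols or synonyms in the rice gene annotation, and they are 3 of the 17905 genes that had a probe set of their own on the array. They were read by 4 probe sets, of which 2 belong to SGR (LOC4347672) and 1 each to NYC1 (LOC4327178) and RCCR1 (LOC4348519). RNA came from leaves of 4-week-old rice (Oryza sativa) and was hybridized to a 1-colour Affymetrix Rice Genome Array. Wild type plants (3 arrays) were compared with transgenic plants overexpressing OsCGA1 (3 arrays), a GATA-type transcription factor. The study concerns chloroplast development, by its title, and the comparison asks how leaf transcripts differ when the factor is in excess. Growth conditions were shared by both genotypes, with days of 16 h at 28 °C and nights of 8 h at 23 °C. The promoter of the transgene and the number of independent lines are not given in the sources used here.

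Chlorophyll is dismantled in an ordered series of steps when a leaf senesces or is kept in darkness. Chlorophyll b is first reduced towards chlorophyll a by a chlorophyll b reductase, for which rice has the genes NYC1 and NOL. The stay-green protein SGR then takes part in the removal of magnesium from chlorophyll a, and rice plants without it keep green leaves as they senesce. After the ring has been opened, red chlorophyll catabolite reductase, encoded by RCCR1, turns the coloured and phototoxic product into one that can be exported from the plastid.

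The deposited values are linear signals made with the program MAS5, and they were analysed as log2(signal + 3). A probe set was tested if its mean over the 6 arrays was at least 16.8 signal units, the median of all non-control values, and all 4 probe sets of the 3 genes were tested. Log2 differences are given as overexpression minus wild type with their standard error after ± (n = 3 arrays in each group), and other spreads are named as SD. A gene is said to have risen or fallen only where the adjusted p of limma, with Benjamini-Hochberg adjustment over all 28456 tested probe sets, was under 0.05. The labels call the replicates biological. The number of arrays limits the precision, and in whole leaves fewer cells of a type and less RNA per cell cannot be told apart.

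Median signals per array were 14.7 to 16.2 in overexpression and 16.8 to 18.7 in wild type. Leaf mesophyll markers were bright. Their signals summed over every probe set of the list genes were 90976 to 105612 in wild type and 72939 to 86862 in overexpression. The sums below were made in the same way, so genes with several probe sets count more. None of the 7 mesophyll genes passed at its brightest probe set. Their median log2 difference was -0.31, and -0.04 under quantile normalization, where the root and epidermis medians were -1.01 and -0.46. At other probe sets rca fell by 0.38 and the FBPase gene LOC4332364 by 0.44, but these passed in only 6 and 8 of 14 alternatives. Among markers of other tissues, 3 of 6 root genes and 2 of 5 tested epidermis genes fell, against 8% of all tested genes. Root sums were 697 to 732 in wild type and 292 to 333 in overexpression, and epidermis sums 2988 to 3158 and 2137 to 2502. Lsi1 alone gave 370.6 to 458.2 of the root sum in wild type and 123.1 to 194 in overexpression. The root genes that did not pass were IRT2, NRAMP5 and HKT1;5, with log2 differences of -1.34, -0.11 and -0.04. Of the root genes that fell, Lsi1 passed in all 14 alternatives, YSL15 in 12 of 13 and IRT1 in only 3 of 13. Of the epidermis genes that fell, Roc2 passed in 11 of 14 and LTPL1 in only 6 of 14. The meristem sum was 253 to 346 in wild type and 114 to 188 in overexpression, and its 2 tested genes went opposite ways. MADS26, which fell, made up most of this sum, at 234.8 to 324.3 in wild type and 73.7 to 147.6 in overexpression. MADS57, which rose, read 7.5, 1.3 and 0.5 on wild type arrays against 35, 33.5 and 36.1 in overexpression. It reached the filter of 16.8 only through its overexpression arrays, so its rise is no evidence about the list. The lower sum follows MADS26. Neither of the 2 tested seed storage genes passed, at sums of 340 to 420 against 327 to 354. No marker probe set was at 0 on any array, but all of OSH1, RA17, GLUA1 and Roc3 lay under the filter. In 2 of 6 rice control pairs the ratio of 3' to 5' signal, a measure used for RNA integrity, separated the groups, with overexpression above wild type. Both were actin pairs. Their means were 2.83 ± 0.397 and 1.79 ± 0.241 (SD, wild type, n = 3) against 4.76 ± 2.20 and 2.60 ± 0.700 (SD, overexpression, n = 3), each with a two-sided exact permutation p of 0.1, the smallest possible. The other actin pair overlapped, as did the GAPDH, cyclophilin and ubiquitin pairs. Of the spiked-in pairs, which carry no leaf RNA, bioD (means of 1.81 and 1.57) was lower and cre (0.778 and 0.831) higher in overexpression without overlap, also at an exact permutation p of 0.1. The part of tissue makeup and RNA quality in the results that follow was not tested. The OsCGA1 transcript was not analysed here, which leaves the transgenic label without a check of its own.

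SGR, the stay-green gene, had the largest difference of the 3 genes and rose at both of its probe sets. At its first probe set (suffix _at) the signals were 50.1, 69.5 and 98.4 on wild type arrays against 279.4, 164 and 342.7 in overexpression. The groups did not overlap, and the lowest overexpression array, replicate 2, was 1.67 times the highest wild type array, replicate 3. The log2 difference was 1.79 ± 0.31 (95% interval 1.08 to 2.51), or 3.47-fold (adjusted p 0.00883, limma). At its second probe set, whose suffix _s_at marks probes that can match more than a single transcript, the wild type arrays read 180.3, 204.4 and 306.6 and the overexpression arrays 852.4, 416.1 and 747.1. The groups again stood apart, and the same arrays, wild type replicate 3 and overexpression replicate 2, came closest to each other. This probe set rose by 1.5 ± 0.29 on the log2 scale (95% interval 0.84 to 2.17), 2.84-fold, with an adjusted p of 0.0131 from limma.

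**Figure D1:**
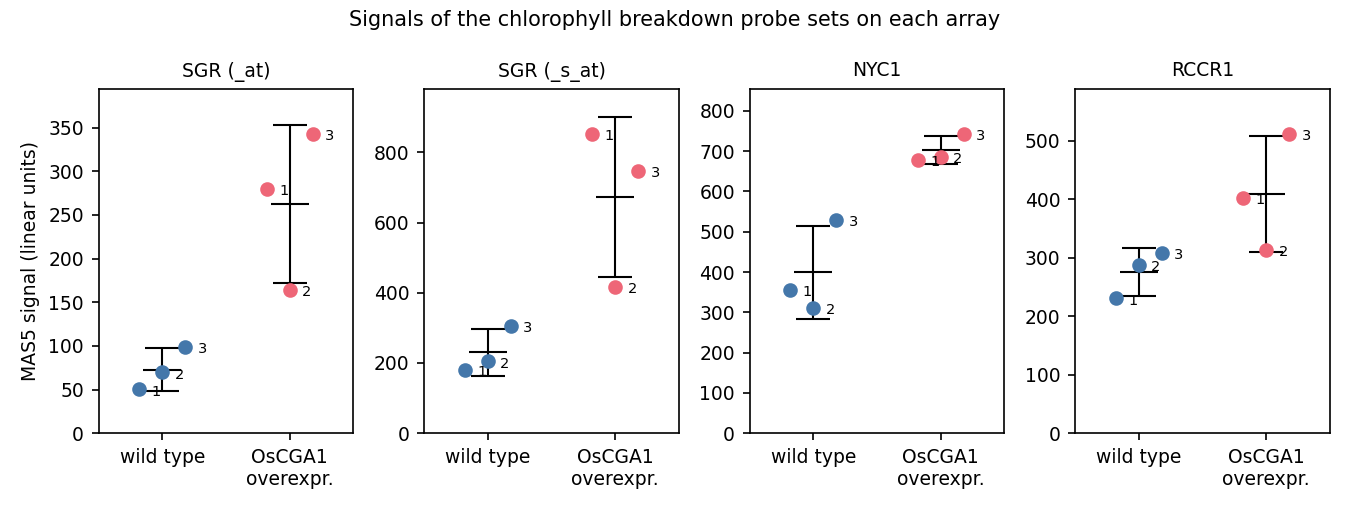
Linear MAS5 signal (vertical axis, from 0) of each SGR, NYC1 and RCCR1 probe set on the 3 wild type (blue) and 3 overexpression (red) arrays, with replicate numbers beside the points, the mean as a bar and the SD as error bars. All 4 probe sets have no overlap between the genotypes, but for RCCR1 the closest arrays are at 308.9 and 313.6.

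Both SGR probe sets gave the same order of wild type arrays, with replicate 1 lowest and replicate 3 highest, and a 1.96-fold and a 1.70-fold range. Among overexpression arrays replicate 2 was lowest at both, while the highest was replicate 3 at the first and replicate 1 at the second. The log2 distance between the probe sets ran from 1.12 to 1.79 over the 6 arrays. A difference at least as high as that of SGR was seen in 1.69% (first probe set) and 2.42% (second) of all tested probe sets. The first probe set passed in all 14 alternative settings, with adjusted p from 0.0016 to 0.038. The second passed in 11 of 14, and was at 1.35 without wild type replicate 1 (adjusted p 0.0535), 1.44 with wild type replicate 2 left out (0.0546) and 1.40 with overexpression replicate 3 left out (0.0505).

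NYC1, which encodes a chlorophyll b reductase, rose to nearly the same level on all overexpression arrays. Its signals were 355.7, 311.4 and 530.3 on wild type arrays against 678.8, 685.6 and 742.9 in overexpression. Wild type replicate 3 stood above the other two wild type arrays, and the lowest overexpression array was still 1.28 times as bright as it. The mean went from 399 ± 116 to 702 ± 35.2 (SD, n = 3 each). The spread on the log2 scale was 0.40 (SD) in wild type and 0.07 in overexpression. NYC1 rose by 0.85 ± 0.19 on the log2 scale (95% interval 0.42 to 1.28), 1.80-fold, with an adjusted p of 0.0208 from limma. It passed in 10 of 14 alternatives. NYC1 did not pass without wild type replicate 1 (0.78, adjusted p 0.0748), wild type replicate 2 (0.69, 0.0666) or overexpression replicate 3 (0.81, 0.0724), nor without the variance trend (adjusted p 0.0508). Without wild type replicate 3, the array closest to the overexpression level, the difference was 1.07 with an adjusted p of 0.00512.

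RCCR1, the red chlorophyll catabolite reductase gene, was brighter in overexpression but did not pass. Its signals were 230.5, 288.4 and 308.9 on wild type arrays against 402.8, 313.6 and 512 in overexpression. The groups did not overlap, yet overexpression replicate 2 lay only 1.02 times above wild type replicate 3. The log2 difference was 0.55 ± 0.19 (95% interval 0.10 to 0.99, before any adjustment), or 1.46-fold, with an adjusted p of 0.0903 from limma. Without overexpression replicate 2 it was 0.72 with an adjusted p of 0.0239, and with array weights 0.74 with an adjusted p of 0.0156. In the other 12 of 14 alternatives it did not pass, and without overexpression replicate 3 the difference was 0.37.

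In all, 3 of the 4 probe sets passed as higher, 2 of the 3 genes. Over all tested probe sets 8.65% passed as higher and 7.44% as lower. The groups stood apart at all 4 probe sets with overexpression above wild type, against 16.7% of all tested probe sets. With 3 genes that were picked with earlier results of these data known, these counts describe the genes and carry no test of their own. Wild type replicate 3, the wild type array with the highest median signal, was the highest wild type array at 4 of 4 probe sets, 2 of which read the same gene, against 33.2% of all tested probe sets. Replicate 2 was the lowest overexpression array at 3 of 4, the exception being NYC1, against 34.6% of all tested probe sets.

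**Figure D2:**
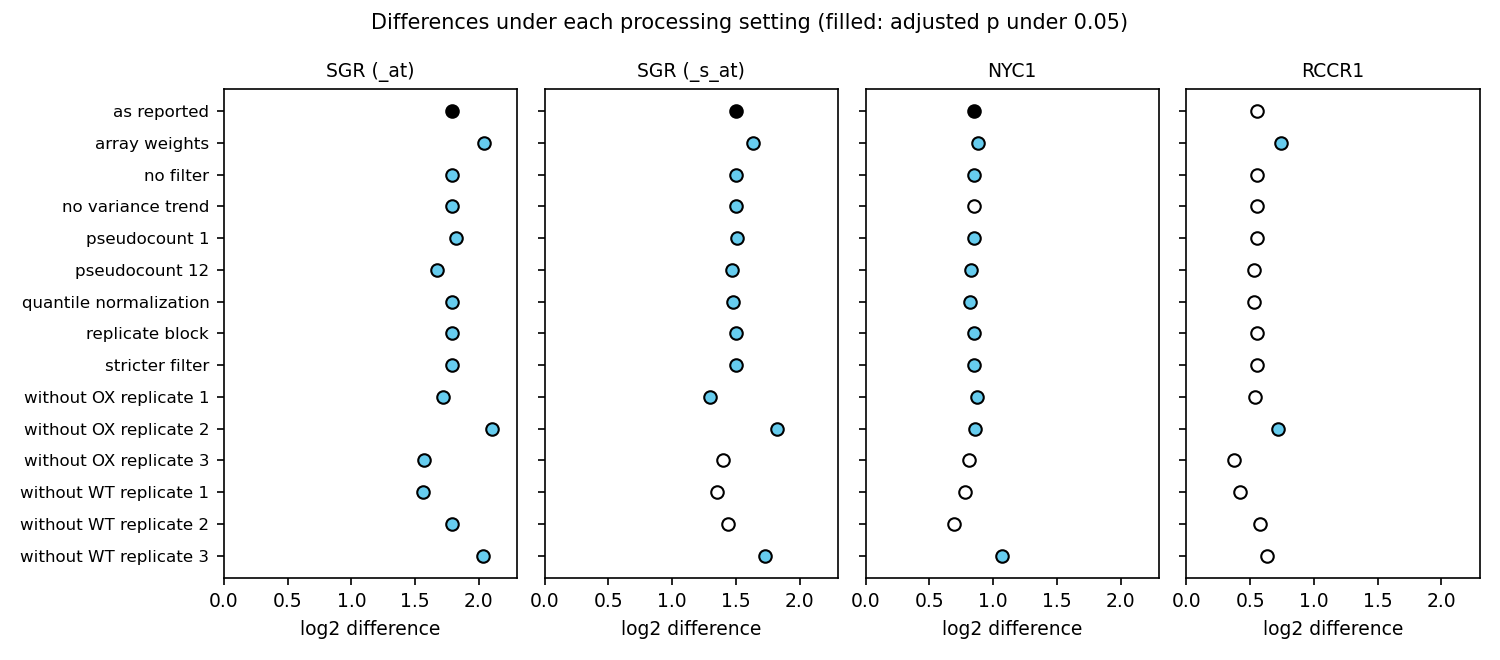
Log2 difference (horizontal axis, overexpression minus wild type) of each SGR, NYC1 and RCCR1 probe set as reported (top point) and under the 14 alternative settings listed at the left, where filled points have an adjusted p under 0.05. Every point lies above 0, and the first SGR probe set is filled in every setting.

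The sizes of the differences were compared between the genes within each array, using the brighter SGR probe set. SGR minus NYC1 on the log2 scale was -0.97, -0.60 and -0.78 on wild type arrays against 0.33, -0.72 and 0.01 in overexpression. The groups overlapped through overexpression replicate 2, and the change of SGR exceeded that of NYC1 by 0.66 (exact permutation p = 0.2, two-sided). SGR minus RCCR1 was -0.35, -0.49 and -0.01 on wild type arrays against 1.08, 0.40 and 0.54 in overexpression, which did not overlap, and the change of SGR exceeded that of RCCR1 by 0.96 (exact permutation p = 0.1, the smallest that 3 against 3 arrays can give). For NYC1 against RCCR1 the excess was 0.30 (exact permutation p = 0.5). Over the 3 pairs the adjusted p-values were 0.3, 0.3 and 0.5, so no pair of genes was shown to differ in its change, and this design could not have passed 0.05.

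Of 15 names in the list of chlorophyll breakdown genes, 5 matched a gene with a probe set, the 3 above with NOL and THF1. Names such as PAO, NYC3, SGRL and HCAR matched no gene by symbol or synonym, so the list is only part of the pathway. Of the 5, 2 rose, 0 fell and 3 did not pass, with a median log2 difference of 0.55 against -0.02 over the 14616 genes tested with 1 probe set each. Of those genes 11.1% rose and 8% fell. The median over all 9 probe sets of the list was 0.13, since THF1 and NOL supply 5 of them, against -0.09 over all tested probe sets. SGR, NYC1 and RCCR1 make up most of this list, so its count repeats their results.

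NOL, which encodes the NYC1-like subunit of chlorophyll b reductase, did not pass at either probe set. At its brighter probe set the signals were 476.3, 494.1 and 450.1 on wild type arrays against 485.8, 461 and 543.9 in overexpression, and the groups overlapped. The log2 difference was 0.07 ± 0.10 (95% interval -0.17 to 0.31), and at the other probe set 0.13 ± 0.17 (95% interval -0.27 to 0.53). NYC1, its partner in the same reaction, had an interval of 0.42 to 1.28, and the difference between these 2 genes was not tested. THF1, a thylakoid formation gene whose loss delays the yellowing of rice leaves, had lower mean signals in overexpression at all 3 of its probe sets, and none passed. At the brightest the signals were 4421.9, 4227.7 and 4408.5 on wild type arrays against 3548.3, 4552.2 and 3652.4 in overexpression, with overexpression replicate 2 above all wild type arrays. At the other THF1 probe sets every overexpression array lay below every wild type array. The closest arrays there were at 3624.3 and 3728.6, and at 69.1 and 69.5. The log2 differences of THF1 were -0.16 ± 0.11, -0.35 ± 0.12 and -0.65 ± 0.22, with adjusted p of 0.357, 0.0937 and 0.0855 from limma. Under quantile normalization they were -0.019, -0.207 and -0.614.

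The tested genes that make chlorophyll did not pass in either direction. Of 7 tested genes of the synthesis branch after protoporphyrin, 0 rose and 0 fell in limma at an adjusted p under 0.05, and their median log2 difference was 0.12. At an unadjusted p under 0.05, CHLH (-0.54 ± 0.17, unadjusted p 0.0144) and CHLP (-0.31 ± 0.13, unadjusted p 0.0418) were lower, against 33.1% of all tested probe sets at that threshold in either direction. CHLH encodes a subunit of magnesium chelatase, which inserts the metal ion, and CHLP a geranylgeranyl reductase that supplies the phytol tail. PORA, a protochlorophyllide oxidoreductase gene, was at 0.37 ± 0.23 and PORB at -0.20 ± 0.16, or 0.031 under quantile normalization between arrays. CHLH signals were 5305, 6813.6 and 7009.6 on wild type arrays against 3615.7, 5493.5 and 4165.7 in overexpression, and the groups overlapped through overexpression replicate 2. Of 5 genes in the light-harvesting and photosystem list, LFNR1 fell (-0.68 ± 0.12, adjusted p 0.00903 from limma), 0 rose and 4 did not pass. Those 4 had log2 differences from -0.39 for PSAG to -0.29 for LHCP. Several of these differences depend on the scaling. Under quantile normalization CAB2R, RCABP69, LHCP and CHLP were at -0.05, -0.039, 0.002 and -0.015, CHLH was at -0.33, and LFNR1 was at -0.437 and still passed (adjusted p 0.0147). PSAG stayed at -0.382. In the same setting SGR was at 1.788 and 1.483, NYC1 at 0.825 and RCCR1 at 0.526.

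**Figure D3:**
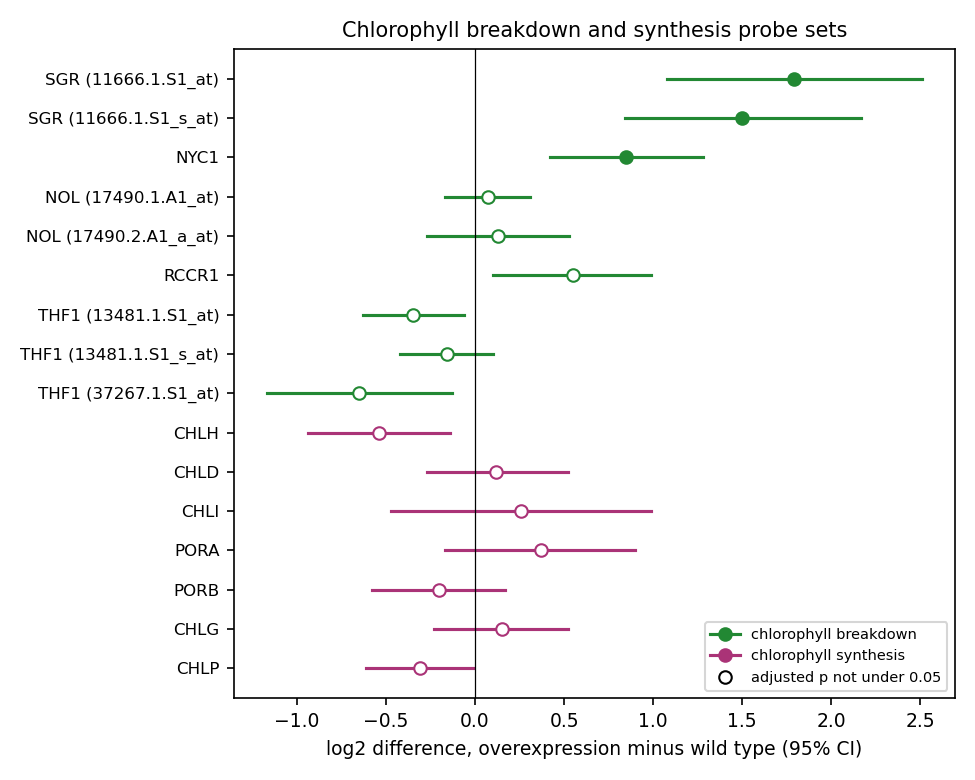
Log2 difference (points) and 95% confidence interval before adjustment (lines) of every tested probe set of the chlorophyll breakdown list (green) and the chlorophyll synthesis list (purple), where filled points have an adjusted p under 0.05. Both SGR probe sets and NYC1 are filled and lie at 1.79, 1.5 and 0.85, while all synthesis points are open and lie between -0.54 and 0.37.

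Other genes tied to leaf senescence went both ways. Of 8 tested genes in that list, 1 rose, 2 fell and 5 did not pass, with a median log2 difference of -0.29. Over all tested genes 11.1% rose and 8% fell, with a median of -0.02, so these small counts describe the list only. The riser was EIL1B, an EIN3-like factor of ethylene signalling, whose signals were 356.8, 414.6 and 379.7 on wild type arrays against 3492.5, 3561.4 and 3690.8 in overexpression. Its close relative EIL1A was at -0.28 ± 0.08 (adjusted p 0.0509 from limma). EIN2, a membrane protein upstream of these factors, fell by 0.41 ± 0.12 on the log2 scale (adjusted p 0.0486), but passed in only 5 of 14 alternatives. Leaving out any of the 6 arrays ended the call of EIN2. GLN1-1, a cytosolic glutamine synthetase gene, fell by 0.73 ± 0.12 (adjusted p 0.00807). EIL1B and GLN1-1 passed in all 14 alternatives. SAG12, a cysteine protease gene named for senescence, had signals of 24.9, 43 and 35 on wild type arrays against 7.9, 11.6 and 43.6 in overexpression. The groups overlapped, and its log2 difference was -0.91 ± 0.53 (adjusted p 0.268). ICL, the isocitrate lyase gene of the glyoxylate cycle, was between 14.8 and 31.4 on 5 arrays and at 161.6 on overexpression replicate 3. Its log2 difference was 0.55 ± 0.72 (adjusted p 0.629). The strigolactone genes D14 and D3 did not pass, at -0.31 ± 0.11 and 0.03 ± 0.20.

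For each gene the 3 most similar profiles were sought among 2049 other named genes, by the root mean square distance between log2 profiles over the 6 arrays, each centred on its own mean. The closest to SGR was CIPK2, a CBL-interacting protein kinase gene, at a distance of 0.204, with signals of 272.6, 345.3 and 430.8 on wild type arrays against 1078.8, 824.9 and 1100.1 in overexpression. It had the order of wild type arrays seen for SGR and the low value of overexpression replicate 2. Lpa1 (0.253) and SAUR39 (0.265), a small auxin-up RNA gene, followed. The closest to NYC1 were NBS1 (0.112), IVD (0.120), which encodes isovaleryl-CoA dehydrogenase, and STT3-B (0.128), which encodes a subunit of oligosaccharyltransferase. IVD signals were 336.3, 336.5 and 458.6 on wild type arrays against 670.5, 663.7 and 624.7 in overexpression, with wild type replicate 3 above the other two as for NYC1. The closest to RCCR1 were URH1 (0.090), a uridine ribohydrolase gene, PP2C68 (0.127), a type 2C protein phosphatase gene, and ARG1 (0.155). Since all 6 arrays enter the distance, it holds the difference between genotypes as well as the spread within them, and it is a description without a test.

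**Figure D4:**
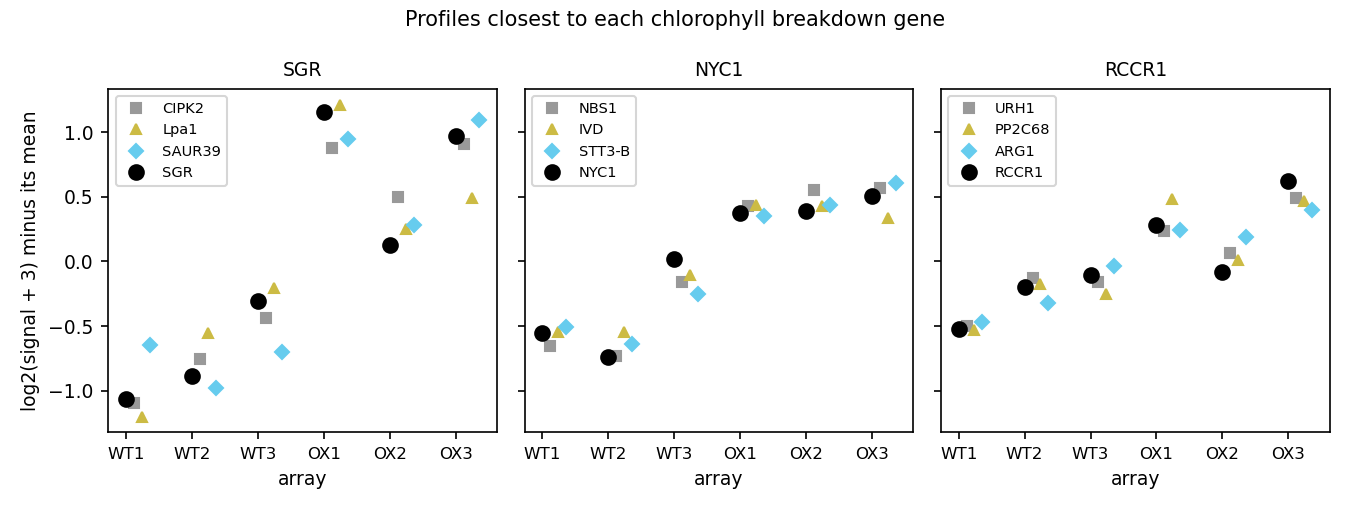
Log2(signal + 3) minus its mean over the 6 arrays (vertical axis) for SGR, NYC1 and RCCR1 (black circles) and the 3 named genes with the closest profile to each (coloured symbols, shifted sideways to be seen), by array (horizontal axis). Wild type replicate 3 is the highest wild type array for each black profile, and overexpression replicate 2 is the lowest overexpression array for SGR and RCCR1.

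Genes near the 3 on the chromosome went both ways. Of 12 protein-coding neighbours, up to 2 on each side in the RefSeq gene order, 7 were tested, of which 2 rose and 2 fell. Over all tested genes 11.1% rose and 8% fell, and whether the neighbours differ from this was not tested. Both risers lie 2 genes away from RCCR1, on opposite sides. LOC4348520, known here by ID alone, rose by 2.63 ± 0.33, and CML8, a calmodulin-like protein gene, by 0.87 ± 0.16. OsPRR95, 2 genes from SGR and a pseudo-response regulator gene of the circadian clock, fell by 0.48 ± 0.14 (adjusted p 0.0494 from limma). But OsPRR95 passed in only 4 of 14 alternatives, among arrays left out only without overexpression replicate 2. The other tested neighbour of SGR, LOC4347671, was at 0.00 ± 0.25. LOC4326745, 2 genes from NYC1, fell by 2.36 ± 0.40. Its signals of 2.6 to 7.7 in overexpression lie near the pseudocount, so the size of its fall depends on that value.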

How the data were processed

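Leaf RNA of wild type and OsCGA1-overexpressing plants was measured on 1-colour arrays, 3 for each genotype. The deposited intensities are linear and were made by the authors with MAS5, per the submitters' processing notes, which name no version; scaling target and detection calls are not given in the sources used here. Every array had a mean of 100 once 2% was trimmed at each end, so no scaling was added.

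Of 57381 probe sets, 187 controls were left out. Names came from GEO's platform annotation and the RefSeq gene table (assembly ASM3414082v1), where all 17905 genes matched. The pseudocount of 3 is the rounded 20th percentile of all values. The test was limma 3.58.1 in R 4.3.3, with lmFit and two-sided eBayes with a variance trend on genotype alone. A trial on simulated data used independent noise and upward changes only, unlike these data, so it is no check of the calls here. List counts and medians, unless said otherwise, used the tested probe set with the highest mean signal per gene. Summed signals took in every probe set of the list genes, tested or not.

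Of 15 names in the breakdown list, 5 matched a gene with a probe set. The synthesis list had 7 such genes from 12 names, the senescence list 8 from 18 and the light-harvesting list 5 from 9. Names without a match by symbol or synonym were not traced to a gene in another way. Whether the array reads those genes is not known here. Named genes were SGR, NYC1 and RCCR1, list genes that passed or had one of the 4 smallest p, and the 3 closest profiles per gene. NOL, LHCP, D14, D3, SAG12, ICL, NRAMP5, HKT1;5 and the neighbours fall outside this rule and were added after their values were seen. The genes and lists were chosen with earlier results of these data known. The planned promoter search was not run. Alternatives were 2 other pseudocounts, 2 other filters, quantile normalization, no variance trend, array weights, a replicate block and each array left out. No arrays held identical values.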

Additional observations from a re-analysis of the deposited data

How the results depend on the processing

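All 4 SGR, NYC1 and RCCR1 probe sets were higher in overexpression under all 14 alternatives. The first SGR probe set ranged from 1.67 to 2.04 over settings with all arrays and from 1.56 to 2.10 with an array left out. The second SGR probe set ran from 1.30 to 1.82, NYC1 from 0.69 to 1.07 and RCCR1 from 0.37 to 0.72 with an array left out. Without the variance trend NYC1 stayed at 0.85 but did not pass, and 1 of 5 list genes rose. With array weights RCCR1 was at 0.74 and passed. Over all tested probe sets, 2461 rose and 2117 fell, against 3708 and 4237 with array weights and 1362 falling with no filter; with an array left out 1274 to 2631 rose and 843 to 2902 fell. Of the 5 breakdown genes, 0 to 3 rose with an array left out, and 0 without wild type replicate 1, wild type replicate 2 or overexpression replicate 3, where the brighter SGR probe set and NYC1 both missed the threshold. The list's median was 0.13 over all of its probe sets, an alternative chosen after seeing the data. With the replicate number as a block, SGR (adjusted p 0.0136 and 0.0192) and NYC1 (0.0255) passed and RCCR1 (0.0871) did not, so none of these calls changed. Deviations from the group mean of arrays with the same number correlated at 0.097, -0.013 and -0.056. For arrays with different numbers the correlations ran from -0.103 to 0.117. With 3 arrays in each group these correlations depend on each other, so they cannot show whether same-numbered arrays shared a batch. The cause of these shifts was not tested. Detection calls were not used, so signal over background is unknown.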
